A study of Homo sapiens with 2 samples.

Results

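The BCL2 family of apoptosis regulators was described here by 10 genes in a genome-wide map of ETV4 binding. The survival genes were BCL2, BCL2L1, MCL1 and BCL2L2, the death effector genes were BAX and BAK1, and the BH3-only death genes were BCL2L11, BBC3, PMAIP1 and BID. They are 10 of the 20037 protein-coding genes in the RefSeq table used. Every ChIP-seq peak that overlapped the span of a gene or the 20 kb on either side of it was taken, which gave 51 of the 54389 peaks in the list. No peak was shared by the windows of different members. The genes were listed by name, with earlier results of these data known, and no binding value enters the rule.

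The map came from 1 anti-Flag immunoprecipitate of A549 cells, an established line of human lung adenocarcinoma. The cells carried an shRNA against ETV4 and had been transfected with Flag-tagged ETV4, so the protein measured was exogenous. The matching library, 1 input, was made from the same line without an antibody. The signal of this input was not analysed here, apart from its use as the control when the peaks were called. The sample labels name a Sigma Flag antibody, whereas the methods of the study name one from CST, and this was not settled. An immunoprecipitate from cells without Flag-ETV4 was not analysed here, and there was no replicate. The values below are therefore those of 1 library, with no SD and no test. The peak list holds no expression, so the markers of the line and the transcripts of these genes were not checked.

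BCL2 proteins decide at the outer membrane of the mitochondrion whether a cell enters intrinsic apoptosis. Once activated, BAX and BAK1 form pores that release cytochrome c, the survival proteins hold them and the BH3-only proteins in check, and the BH3-only proteins carry the death signal to both. ETV4 belongs to the PEA3 group of ETS transcription factors, which recognise DNA around a GGAA core.

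Fold is the ratio of the fragment pileup at the summit of a peak to the control level there, with a pseudocount of 1 added to each. Over all peaks of the list the fold had a minimum of 2.34 and a median of 9.63, and the pileup from 6 to 7664 fragments with a median of 26. The 95% Poisson intervals given with pileups cover counting error only. A gene-end peak is one whose interval came within 1 kb of either outer end of a gene over all its transcripts, and a distal peak is any other peak of the window. Positions are 1-based on hg38.

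Every member had a gene-end peak, 10 of 10 against 62.1% of all protein-coding genes. All 10 had one with a fold over 10, which 45.2% of protein-coding genes had. At a fold over 20 the count was 7 of 10, with a background of 27.6%. The 3 genes with lower values were BCL2 and BBC3, both at 19.7, and BAX at 16.4. For 8 members RefSeq promoter entries gave the direction of the gene, and all 8 had a peak at the outer 5′ end, as did 61.3% of protein-coding genes with a direction. A further peak at the 3′ end was present for BAX and PMAIP1, 2 of 8 against 8.34%. A peak anywhere in the window was common, with 86.1% of protein-coding genes having one, so its presence near all 10 members sets them little apart.

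**Figure D1:**
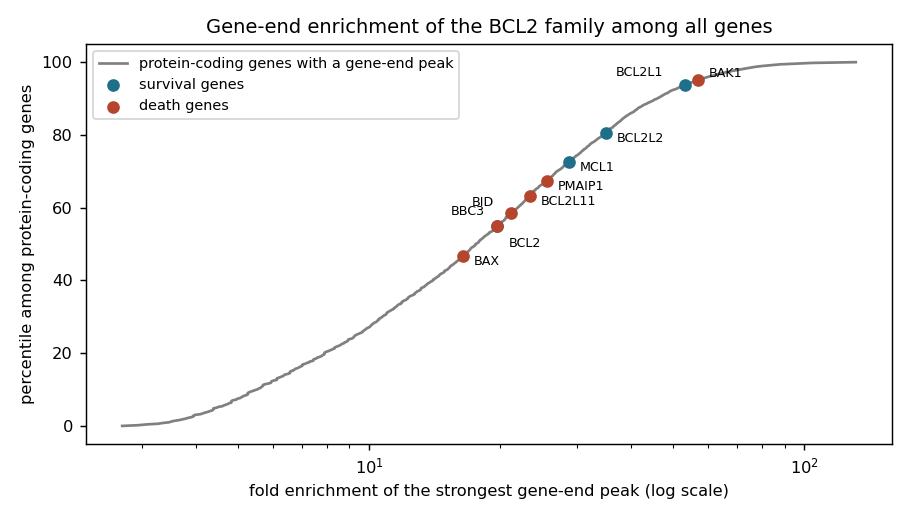
Percentile (vertical axis) of the fold of the strongest gene-end peak (horizontal axis, log scale) among 12444 genes, those protein-coding genes that had one; the line is all these genes and the points are the 4 survival and 6 death genes. BAK1 and BCL2L1 lie near the top at folds of 57.0 and 53.1, and BAX is the lowest member at 16.4.

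Among protein-coding genes with a gene-end peak, the strongest such peak had a median fold of 17.6 and quartiles of 9.33 and 30.6. In this order 9 of the 10 members lay above the median, and the middle of the family fell at percentile 65.2. BAX, at percentile 46.6, was the exception. The family therefore sat in the upper part of the range without forming its top, which BAK1 and BCL2L1 alone approached at percentiles 94.9 and 93.6.

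Promoter DNA is shown for 3 members. BAK1 had the highest gene-end fold and BAX the lowest, and PMAIP1 had its summit inside the bases printed. Each is the 250 bases before the outer 5′ end, from RefSeq on GRCh38.p14, written 5′ to 3′ on the strand of the gene. Any AGGAAG on that strand is in capitals. The summits of BAK1 and BAX lay downstream of the printed bases. The AGGAAG counted for BAK1 below is on the other strand, 9 bases after the start, so it is not printed. The 3 stretches lie at chr6:33580277-33580526 on the minus strand, chr19:48954625-48954874 on the plus strand and chr18:59899746-59899995 on the plus strand.
BAK1: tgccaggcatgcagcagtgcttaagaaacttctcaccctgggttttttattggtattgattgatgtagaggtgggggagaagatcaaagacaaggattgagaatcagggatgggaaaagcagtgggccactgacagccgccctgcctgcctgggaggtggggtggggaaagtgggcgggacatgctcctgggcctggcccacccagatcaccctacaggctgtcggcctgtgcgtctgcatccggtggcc
BAX: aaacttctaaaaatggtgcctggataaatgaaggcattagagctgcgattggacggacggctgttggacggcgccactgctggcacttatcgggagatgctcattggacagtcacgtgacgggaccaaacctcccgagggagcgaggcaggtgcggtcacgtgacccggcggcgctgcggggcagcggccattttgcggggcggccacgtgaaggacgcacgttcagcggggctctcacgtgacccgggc
PMAIP1: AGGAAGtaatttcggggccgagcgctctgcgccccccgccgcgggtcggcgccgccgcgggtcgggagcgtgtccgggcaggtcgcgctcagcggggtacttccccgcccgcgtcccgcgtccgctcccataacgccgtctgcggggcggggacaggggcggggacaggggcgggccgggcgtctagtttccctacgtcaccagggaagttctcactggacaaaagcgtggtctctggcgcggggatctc

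Shorter stretches of 30 bases are shown for 3 genes with starts inside the outer span, 2 of them with a motif and BCL2 without. The site of BCL2L1 is at its outer start, not at the inner one, and holds the long ETS sequence ACCGGAAGT (chr20:31723936-31723965, minus strand). Those of BBC3 (chr19:47232666-47232695, minus strand) and BCL2 (chr18:63319949-63319978, minus strand) surround the summit of the gene-end peak. Capitals mark ACCGGAAGT or AGGAAG, and the BCL2 stretch holds neither.
BCL2L1 site: ttgccgcggcACCGGAAGTgactgagcttg
BBC3 summit site: aaaaAGGAAGgacaaaactcaccaaaccag
BCL2 summit site: gggctgcgcggcgggagctccgggaggcgg

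BCL2L1 encodes BCL-XL, the survival protein that holds BAX and BAK1 inactive in many epithelial cells. Its gene-end peak (chr20:31722360-31724087) had a fold of 53.1, a −log10 q of 464 and 339 fragments at the summit (95% interval 304 to 377), and was 1728 bp wide. This was the largest gene-end pileup of the family. The interval reached the outer 5′ end, while the summit lay 1193 bp inside the gene and 98 bp downstream of the other RefSeq start. The ACCGGAAGT printed above is under the same peak, 8 bases after the outer start and 1181 bp from the summit.

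The window of BCL2L1 held 12 peaks, more than any other member. The strongest was distal, at chr20:31674669-31675661, deep inside the gene and 48840 bp from its outer 5′ end. Its fold was 94.8, its −log10 q 931 and its pileup 574 fragments (528 to 623), which placed it at percentile 98.9 of all peaks by fold and 99.9 by pileup. The summit was 15 bp from an end of BCL2L1-AS1, a long non-coding RNA gene on the same stretch. A second distal peak at a gene end, 241 bp from an end of TPX2, a spindle assembly factor, had a fold of 32.4. Of the 9 remaining peaks, none at the end of another gene, 7 were inside BCL2L1 and 2 upstream, with folds from 3.52 to 23.7. The control level under the 12 peaks was 2.66 to 5.74 with a median of 4.39, or 2.63 times the median of the whole list, whereas the median over chromosome 20 was 1.69. The pileups of this gene thus stood on a higher control level than those of the other members, whose median levels were 1.51 to 2.39. The fold divides by this level, and its part in the pileups was not tested.

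BCL2, the founding survival gene of the family, lies on 197 kb of chromosome 18. Its gene-end peak at chr18:63319228-63320565 had a fold of 19.7, a −log10 q of 72.4 and 72 fragments (56.3 to 90.7). The summit was 127 bp inside the outer 5′ end and 194 bp upstream of its RefSeq start. All 5 distal peaks were inside the gene. One, with its summit 1604 bp from the outer end, had a fold of 19.0, and one 157286 bp into the gene had a fold of 23.2 with 77 fragments (60.8 to 96.2). That deep peak ranked first in the window, but its interval overlapped most of that of the gene-end peak. The end nearest to it was that of LOC124904379, a pseudogene, 31781 bp away. The other 3 had folds of 4.11, 5.11 and 8.08. BCL2 had the lowest peak density of the family, 2.53 per 100 kb of window.

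MCL1, a short-lived survival protein, had its gene-end peak at chr1:150578383-150579968, with a fold of 28.8, a −log10 q of 91.6 and 74 fragments (58.1 to 92.9). The summit lay 34 bp outside the upper end of the gene. The strongest peak of its window was elsewhere, 425 bp from an end of ADAMTSL4, with a fold of 44.8 and 109 fragments (89.5 to 131). Its interval met that of the gene-end peak at the edge. Such overlap alone does not settle the order of their pileups, which was not tested. The other 2 distal peaks were weak, with folds of 4.05 and 4.31. The nearest gene to both was RN7SL473P, a pseudogene.

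BCL2L2 encodes the survival protein BCL-w. Its gene-end peak at chr14:23306493-23307363 had a fold of 35.0, a −log10 q of 108 and 79 fragments (62.5 to 98.5), with a control level of 1.28, the lowest in the list. The summit was 109 bp from the lower end of the gene, an end it shares with the readthrough gene BCL2L2-PABPN1. No distal peak lay inside BCL2L2, and all 3 were at the ends of neighbours, one of fold 26.2 near PPP1R3E and those of fold 4.01 and 11.8 near PABPN1. For MCL1 and BCL2L2 the gene table gave both ends but the direction was not used.

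BAK1, the effector that resides on the mitochondrion, had the highest gene-end fold of the family. Its peak at chr6:33579347-33580458 had a fold of 57.0, a −log10 q of 264 and 177 fragments (152 to 205), with the summit 328 bp downstream of the start. It was 5.24 times as enriched as the strongest distal peak of the window, the highest such ratio among the members. That distal peak, with a fold of 10.9, was 285 bp from an end of the pseudogene GGNBP1. The other 4 had folds from 4.59 to 10.1. Compared with BCL2L1, BAK1 was higher in fold and lower in pileup, and the control levels at the 2 summits were 2.12 and 5.40.

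BAX, the effector that moves from the cytosol to the mitochondrion, had the lowest strongest gene-end fold. The peak at chr19:48954751-48955445 had a fold of 16.4, a −log10 q of 50.8 and 54 fragments (40.6 to 70.5), with its summit 224 bp downstream of the start. A second gene-end peak 548 bp beyond the 3′ end was the lowest of all 51 by fold and by q, with a fold of 2.97, a −log10 q of 1.79 and 9 fragments (4.12 to 17.1). The distal peaks were one of fold 12.3, 115 bp from an end of FTL, which encodes the ferritin light chain, and one of fold 6.57 upstream. By fold, the effector pair thus held both the top and the bottom of the family at the gene end.

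BCL2L11 encodes BIM, a BH3-only protein that engages all survival proteins. It had the widest peak of the family, 3209 bp at chr2:111120204-111123412, with a fold of 23.4, a −log10 q of 80.6 and 73 fragments (57.2 to 91.8). The summit was 398 bp downstream of the start, the largest such distance among the 8 members with a direction. A peak of fold 10.5 lay 603 bp from an end of ACOXL, a neighbour upstream, and one of fold 3.78 lay downstream, 5179 bp from an end of the long non-coding RNA gene LOC124907868. No other peak was found over the 47.5 kb of the gene.

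BBC3 encodes PUMA, a BH3-only protein known as a p53 target. Its gene-end peak at chr19:47232458-47233108 had a fold of 19.7, a −log10 q of 55.5 and 52 fragments (38.8 to 68.2), the lowest among the members' strongest gene-end peaks. The summit was 13 bp upstream of a RefSeq start, and an AGGAAG was 8 bp from it. The strongest peak of the window was not there but 11486 bp upstream, at chr19:47243653-47244659, with a fold of 57.7 and 154 fragments (131 to 180). It lay 151 bp from an end of LOC124904731, a long non-coding RNA gene, and was 2.92 times as enriched as the gene-end peak. The 2 intervals did not overlap, so this order held against counting error. A further 3 distal peaks were inside the gene, with folds of 25.2 and 10.1 near the microRNA gene MIR3190 and 23.0 at 1800 bp from the outer 5′ end. The last of the 6, upstream near LOC124904731, had a fold of 18.7. No peak of BBC3 was below 10.1.

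PMAIP1 encodes NOXA, a BH3-only protein that binds MCL1. It had 2 peaks, the fewest of the family, and both were at gene ends. The stronger, at chr18:59899222-59900801, had a fold of 25.6, a −log10 q of 84.8 and 73 fragments (57.2 to 91.8), with its summit 127 bp upstream of the start and 121 bp from the AGGAAG that opens the sequence shown. The other, 712 bp from the 3′ end, had a fold of 5.38 and 15 fragments (8.40 to 24.7).

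BID encodes the BH3-only protein that caspase-8 cleaves, which links death receptors to the mitochondrion. Its gene-end peak at chr22:17773709-17774786 had a fold of 21.2, a −log10 q of 67.5 and 63 fragments (48.4 to 80.6). The gene has 5 RefSeq starts, and the summit was 52 bp downstream of the nearest and 734 bp inside the outer end. A distal peak 2885 bp into the gene had a fold of 12.1, and a weak one farther in had a fold of 3.93 with 8 fragments. The strongest distal peak, with a fold of 13.1, lay at the end of BCL2L13, a relative that lies across a short gap from BID, and was also the gene-end peak of that relative.

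**Figure D2:**
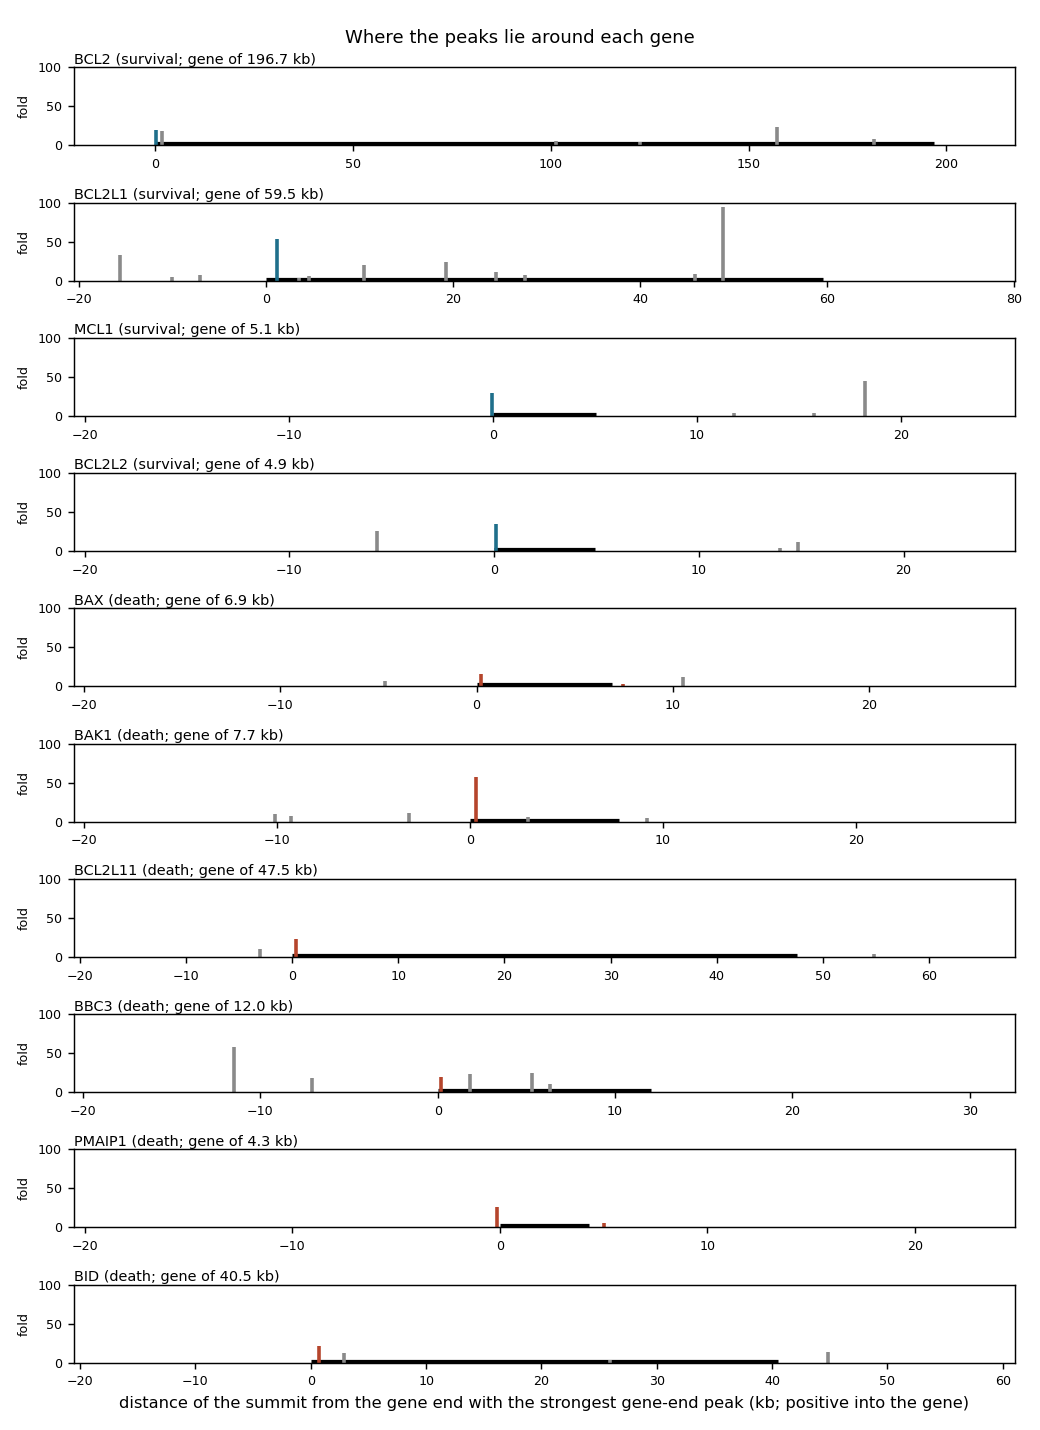
Fold (vertical axis) of each peak against the distance of its summit in kb from the gene end that carries the strongest gene-end peak (horizontal axis, positive into the gene, scaled separately for each gene); black bars are the gene spans, coloured lines gene-end peaks and grey lines distal peaks. BCL2L1 has 12 peaks along its locus, with the 94.8-fold peak deep in the gene, and PMAIP1 has 2.

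The order of the members by gene-end pileup had 3 levels. BCL2L1 at 339 fragments was above BAK1 at 177, and both were above the other 8, which ran from 52 to 79 fragments. The intervals of BCL2L1 and BAK1 overlapped neither each other nor any other member. Among the other 8, every interval overlapped every other. Overlap alone does not settle their order by pileup, which was not tested.

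**Figure D3:**
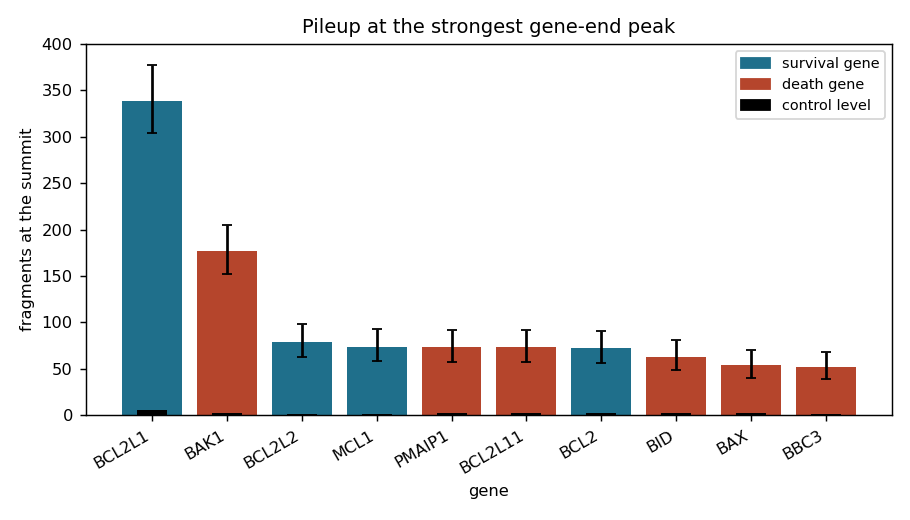
Fragments at the summit of the strongest gene-end peak of each member (bars, from 0) with 95% Poisson intervals for counting error, and the control level at the same summit (black). BCL2L1 (339) and BAK1 (177) stand above the other 8 members, which lie between 52 and 79.

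Survival and death genes were compared to see whether ETV4 occupancy fell to one side of the family. The strongest gene-end fold had a median of 31.9 over the 4 survival genes, with a range of 19.7 to 53.1, and of 22.3 over the 6 death genes, with a range of 16.4 to 57.0. The ratio of the medians was 1.43. The ranges overlapped, and a death gene, BAK1, was the highest of all. A fold over 20 was reached by 3 of 4 survival genes and 4 of 6 death genes. By pileup the ratio of medians was 1.12. Without BCL2L1 the fold ratio was 1.29, and without both BCL2L1 and BAK1 it was 1.36.

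The comparison over all peaks of the windows had the opposite sign and was smaller. The 26 peaks of survival genes had a median fold of 11.2 and the 25 of death genes one of 12.1, a ratio of 0.924. BCL2L1 alone gave 12 of these 26 peaks. The comparison was not repeated without it, so whether the sign holds for the other survival genes is not known. Survival genes had a median of 5 peaks each and 8.89 per 100 kb, against 4 and 6.75 for death genes. Of the survival peaks 15.4% were at a member's end, and of the death peaks 32.0%. The 4 BH3-only members were close to each other at the gene end, from 19.7 to 25.6. The survival genes and the effectors each spanned a wider range. This closeness was not a trait of BH3-only genes at large. The other death relatives with a gene-end peak, outside the members, ran from 10.8 to 34.6, with the BH3-only gene BAD the highest. With 4 and 6 genes of 1 library, a difference between the classes was given as values with no test.

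**Figure D4:**
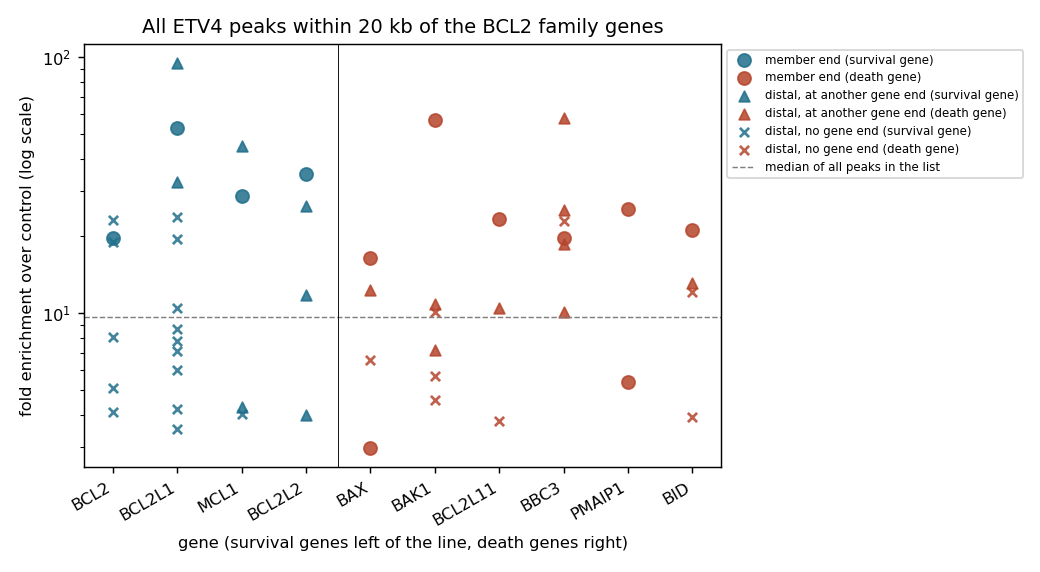
Fold (vertical axis, log scale) of all 51 peaks by gene, with survival genes left of the line and death genes right of it; circles are gene-end peaks, triangles distal peaks at the end of another gene, crosses distal peaks at no gene end, and the dashed line the median of the list (9.63). The 2 classes overlap throughout, and most crosses lie below the circles.

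Gene-end peaks were stronger and wider than distal peaks. The 12 gene-end peaks had a median fold of 22.3, 72.5 fragments, a −log10 q of 76.5 and a width of 1095 bp. The 39 distal peaks had medians of 10.1, 28 fragments, 23.9 and 496 bp. The ratio of the median folds was 2.2. The control levels had medians of 2.07 and 2.04, but 11 of the 39 distal peaks were those of BCL2L1, with its higher control level. Within survival genes the gene-end and distal medians were 2.15 and 2.7, and within death genes 2.07 and 1.69. The ranges overlapped widely, since the gene-end peaks included the weak 3′ peaks of BAX and PMAIP1 and the distal peaks included the strongest peaks of BCL2L1 and BBC3. The same order was present in the whole list, where peaks at a protein-coding gene end had a median fold of 15.4 and peaks within 20 kb but away from any such end one of 8.32.

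Of the 39 distal peaks, 16 were at the end of another gene of any type and 23 were at no gene end. No such share over all distal peaks of the list is given beside this count. The 16 at the end of another gene had a median fold of 12.7, and the 23 at no gene end had one of 7.1 and none above 23.7. Both distal peaks with a fold over 50, in BCL2L1 and upstream of BBC3, were at the ends of long non-coding RNA genes. In all, 20 of the 51 peaks, or 39.2%, were at the end of some protein-coding gene, against 30.9% of all peaks within 20 kb of a protein-coding gene. Folds over 10 were found for 31 of the 51, 60.8%, with 48.5% over the list, and 16 of the 51 were 1 kb or wider, with 17.1% over the list. In 6 of the 10 windows the strongest peak was at the member's own end, close to the 55.2% among protein-coding genes with a gene-end peak (39.8% among those with any peak in the window). The exceptions were BCL2, BCL2L1, MCL1 and BBC3.

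Peaks were dense around the family. Protein-coding genes had a median of 2 peaks per window and 2.88 per 100 kb, and 9 of the 10 members were above the latter, BCL2 being the exception. BAK1, BCL2L1 and BBC3 were the densest, with 12.6, 12.1 and 11.5 peaks per 100 kb.

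Summits lay close to transcription starts. Measured from the nearest RefSeq start, the summit was 13 bp away for BBC3, 52 for BID, 98 for BCL2L1, 127 for PMAIP1, 194 for BCL2, 224 for BAX, 328 for BAK1 and 398 for BCL2L11. Those of BBC3, PMAIP1 and BCL2 were upstream and the other 5 downstream. The median was 160 bp for the 8 members and 205 bp over the 9717 protein-coding genes with a peak at the outer 5′ end.

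The promoter windows of 300 bases, 250 before and 50 after each RefSeq start, were searched on both strands for 3 ETS sequences. The shortest were CCGGAA and the variant AGGAAG. The longest was ACCGGAAGT, which contains the first of these, so its matches count for both. The sequence TGANTCA, which AP-1 factors recognise, was searched as well. The 8 members with entries had 13 windows, of which 9 lay wholly inside the gene-end peak. CCGGAA was found for BCL2L1, in 1 of the 13 windows or 7.69%, against 17.2% of all 35116 windows, with a share of 30.5% among windows that overlapped a peak and 7.65% among the others. The match in BCL2L1 was part of the longer ACCGGAAGT, which 1.0% of all windows held, 2.05% of those under a peak and 0.236% of the others. AGGAAG was found in 6 of the 13 windows, 46.2%, against 33.6% of all windows, 33.6% of those under a peak and 33.7% of the others. These windows belonged to BCL2L1, BAK1, BBC3, PMAIP1 and BID, the last with 2 windows that overlap and share their matches. TGANTCA was found in 1 of the 13, that of BBC3, 97 bp from the summit, against 7.71% of all windows, 4.67% of those under a peak and 9.91% of the others. The windows of BCL2, BAX and BCL2L11 held none of the 4. GC content of the members' windows ran from 48.0% to 78.0% with a median of 68.7%, and 9 of the 13 were above the median of all windows, 58.7%. These matches describe letters in a window and were not tested as binding sites.

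The rest of the pathway was taken from 7 lists with 43 genes outside the members. Of these, 35 had a gene-end peak, 81.4% (Wilson 95% interval 67.4 to 90.3, counting error only) against 62.1% of all protein-coding genes. A fold over 10 was reached by 26, 60.5% against 45.2%, and a fold over 20 by 14, 32.6% and so near the background of 27.6%. The median of the strongest gene-end fold was 15.8. Other BCL2 relatives had a gene-end peak in 9 of 13 cases, and 2 of 13 passed a fold of 20, BAD at 34.6, a BH3-only sensor of growth factor signals, and BCL2L12 at 42.1. BCL2L10, BOK, BCL2L14 and BCL2L15 had none.

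Outside the family, gene-end peaks were present for 8 of 8 mitochondrial pore partners, 5 of 6 genes of the apoptosome and its caspases, 8 of 10 of the death receptor pathway and 5 of 6 caspase inhibitors. Those without were CASP6, FAS, CASP8 and BIRC5. Among the highest folds of all 43 were those of the caspase inhibitors BIRC2, at 56.5 with 208 fragments (181 to 238), and XIAP, at 49.8 with 113 fragments (93.1 to 136). The lowest were those of CYCS, which encodes cytochrome c, at 3.69 with 8 fragments (3.45 to 15.8), ENDOG, a mitochondrial nuclease, at 4.16 and CASP10, an initiator caspase, at 6.13. The caspase inhibitors with a gene-end peak had a median fold of 41.3, with a range of 9.69 to 56.5. The median was 9.94 for the pore partners (3.69 to 46.1) and 15.8 for the apoptosome and its caspases (8.26 to 69.8). That of the death receptor pathway lay between the apoptosome list and the inhibitors, with folds of 6.13 to 37.8. The inhibitors thus had the highest median of these lists, but the ranges overlapped and the difference was not tested.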

How the data were processed

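ChIP-seq peaks of 1 anti-Flag immunoprecipitate, called over 1 input, were used. The submitters' processing notes name Bowtie2 2.4.1, SAMtools, MACS2 2.2.7.1 and deepTools 3.5.0 on hg38, with parameters, other than a minimum fold, not given in the sources used here. The authors deposited for each peak an interval, a summit, the fold enrichment as a ratio over the control, and the −log10 p-value and −log10 q-value. A display score was not used. The lowest −log10 q was 1.30.

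Pileup and control level at each summit were solved from fold and −log10 p by a Poisson upper tail, adding 1 to both levels. Of 54389 pileups, 100% were whole within 0.01. The solution and the distance functions were tested on simulated data. Gene ends came from RefSeq (59679 genes), and direction and promoter sequence from RefSeq promoter entries on GRCh38.p14 for 8 of 10 members. Intervals are Poisson or Wilson 95%.

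The members, lists and rules were chosen with earlier results of these data known. All members were named with every peak, neighbours where an end was nearer to a peak than any end of the member, and the 3 highest and 3 lowest of the listed genes, of which 1 is not reported here. Alternatives changed the gene-end window, flank, thresholds, summit, ranking, end and assignment. Computations ran in Python 3.11.15 with scipy 1.17.1, pandas 2.3.3 and numpy 2.4.6, and figures in matplotlib 3.10.9.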

Additional observations from a re-analysis of the deposited data

How the results depend on the processing

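The number of peaks in the members' windows, 51, depended most on how peaks were assigned. It was 29 within the gene spans alone, 31 at a fold over 10 and 21 for peaks whose nearest gene end was that of the member, and between 41 and 73 under the other 3 alternatives. All 10 members kept a gene-end peak with windows of 2 and 3 kb. All 10 also kept one at a fold over 5, a fold over 10 and a −log10 q over 10. At a fold over 20 the count was 7, as given above. When summits replaced intervals 9 members kept one, BCL2L1 being the exception. For the strongest gene-end peak the ratio of survival to death genes ranged from 1.12 to 1.64, whereas over all peaks of the windows it was 0.924. The ratio of gene-end to distal peaks ranged from 2.05 to 3.13. The 1.64 was for the 5′ end of the 8 members with a direction, where the survival genes were BCL2 and BCL2L1 alone. Leaving out distal peaks at another gene's end (3.13), BCL2L1 (1.29), or BCL2L1 and BAK1 (1.36) were alternatives chosen after seeing the data. No paired analysis was possible because there was 1 immunoprecipitate. Depth limits the weakest peaks, such as the 9 fragments 3′ of BAX.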

Other observations

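FAS, the death receptor gene, was singled out after its values were seen. It had no peak within 1 kb of its outer ends, yet the peak at chr10:88986360-88987215 inside the gene had a fold of 212 and 540 fragments (95% Poisson interval 495 to 588, counting error only), 4066 bp from the nearest RefSeq start. The outer gene end nearest to that summit was one of ACTA2, 4605 bp away, whereas the nearest outer end of FAS was 22682 bp away. A peak at one of the 3 RefSeq starts of FAS had a fold of 39.7. CASP6, CASP8 and BOK, also without a peak at an outer end, had peaks of fold 13.1, 12.9 and 13.0 within 1 kb of an internal RefSeq start.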
